A study of Mus musculus with 6 samples.

Results

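Autophagy is the process by which a cell encloses part of its own cytoplasm in a double membrane, the autophagosome, and delivers it to the lysosome for breakdown. A kinase complex starts the process, a lipid kinase complex marks the growing membrane, and lipid transfer proteins expand it. A pair of ubiquitin-like conjugation systems then attach ATG8 proteins to the membrane, and cargo receptors bind ATG8 to select what is enclosed. In fibroblasts autophagy runs at a basal rate, and much of its regulation acts on proteins rather than on transcripts, so transcript levels do not measure its activity.

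The genes described here are 35 genes of the core autophagy machinery, chosen by name for their known role and not for their values. Earlier results of these data were known when they were chosen. Of these, 34 had a row among the 22162 genes of the deposited table. The transcription factor without a row was not analysed here.

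The cells were mouse skin fibroblasts (MSFs), a line grown from the digested dorsal skin of an FVB/N FASST mouse and kept at 3% oxygen and 5% carbon dioxide. FASST mice carry a tamoxifen (TAM)-inducible Cre recombinase under the promoter of the pro-alpha 2(I) collagen gene, which limits the recombinase to cells that use this promoter, and a ROSA26 allele in which Cre removes a stop signal before p27Kip1 and GFP. Both groups carried these alleles. The TAM group, labelled senescent, received 10 µM TAM for 48 h and the EtOH group, labelled non-senescent, the ethanol vehicle, with 3 libraries of poly(A) RNA in each group. The paper's methods describe cells from 1 mouse, so the spread between libraries may be technical, and p-values measure only that spread. There was no group without the alleles that received TAM, so an effect of TAM itself and one of the allele cannot be told apart.

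The deposited normalized counts summed to between 14952367 and 17314953 per library. Fibroblast markers were abundant, with all 10 of 10 listed markers tested and sums between 1589026 and 1773950 normalized counts in EtOH and between 723072 and 1164149 in TAM, and 6 of the 10 lay lower in every TAM library, where 11.4% of all genes tested did, while Thy1 lay higher in every TAM library. The 8 macrophage markers summed to at most 555 normalized counts in any library, with Adgre1 listed at 0 in all 6, the 8 keratinocyte markers to at most 143, with Krt1 listed at 0, the 8 endothelial markers to at most 241, with Cldn5 listed at 0, and the 7 melanocyte markers to at most 1010. The endothelial sum was lower in TAM, at 24.6 to 45.2 against 92.5 to 241 normalized counts, mostly through Kdr, while Vwf was higher in every TAM library. The macrophage markers Lyz2 and Csf1r were also higher in every TAM library, at 103 to 159 against 35.2 to 62.9 and at 90.6 to 226 against 73.4 to 75.7 normalized counts. The rest of that list did not move together. Mean counts were higher in TAM for Cd14, at 81.2 against 40.7, and lower for Cd68, at 85.3 against 167, and Aif1, at 15.7 against 18.7. The groups overlapped for Cd14, Cd68 and Aif1, and Ptprc and Fcgr1 reached at most 5.01 and 3.11 in any library. In bulk RNA, fewer cells of a type and less RNA per cell cannot be told apart, and the part of these marker differences in the results below was not tested. Cdkn1b, which encodes p27Kip1, was listed at 1427, 3074 and 1853 normalized counts in EtOH and at 1699, 1520 and 1630 in TAM, so its row does not separate the groups, which are named here by their labels. Whether reads of the ROSA26 allele were counted in this row is not given in the sources used here. Both libraries numbered 2 stood apart. When each library was weighted by how well the model fitted it, these 2 libraries had a weight of 0.29 each, and the other 4 had weights between 0.93 and 4.06. Results that rest on them are given with and without them.

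No autophagy gene changed past the threshold between TAM and EtOH. With limma, at a Benjamini-Hochberg adjusted p under 0.05, 0 of the 33 members that could be tested were higher in TAM and 0 were lower, against 0.168% and 0.0758% of all 11877 genes tested. At an unadjusted p under 0.05, 2 members were higher, Rb1cc1 and Atg7, and 0 were lower, where 6.67% and 6.7% of all genes tested passed. When the replicate number entered the fit as a block, the calls were again 0 and 0, where 1% and 0.615% of all genes were called. At an unadjusted p under 0.05 this fit had 1 member higher, Rb1cc1, and 1 lower, Atg10, where 8.64% and 8.32% of all genes passed. The smallest adjusted p of any member was 0.196, and 0.112 with the block, both for Rb1cc1. A test needed at least 1 c.p.m., here 16.2 normalized counts from the mean sum of the libraries, in at least 3 of the 6 libraries, which Atg9b did not reach.

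The differences were small and went both ways. Fold changes are differences of log2(normalized count + 1), TAM minus EtOH. They were positive for 17 members and negative for 16, with a median of 0.02 beside −0.03 over all genes tested, and they ran from −0.57 for Atg10 to 0.76 for Rb1cc1. The split moved with the scaling and the libraries used. It was 26 positive and 7 negative with equal library totals, where the median of all genes was 0.08. It was 13 and 20 without TAM library 1, where that median was −0.03. The median size of the difference was 0.15 on the log2 scale for the members and 0.27 for all genes. The 95% interval lay within a 2-fold change in either direction for 29 of the 33 members, or 87.9%, beside 56.0% of all genes, and it reached past that size for Rb1cc1, Atg10, Atg16l2 and Foxo3. The median standard error (SE) was 0.20 for the members and 0.26 for all genes. All genes were not matched to the members by level. Every tested member had a mean of at least 109 normalized counts in each group, while genes were tested from 16.2 in 3 libraries. The smaller differences and narrower intervals of the members therefore cannot be read as particular to autophagy genes.

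**Figure D1:**
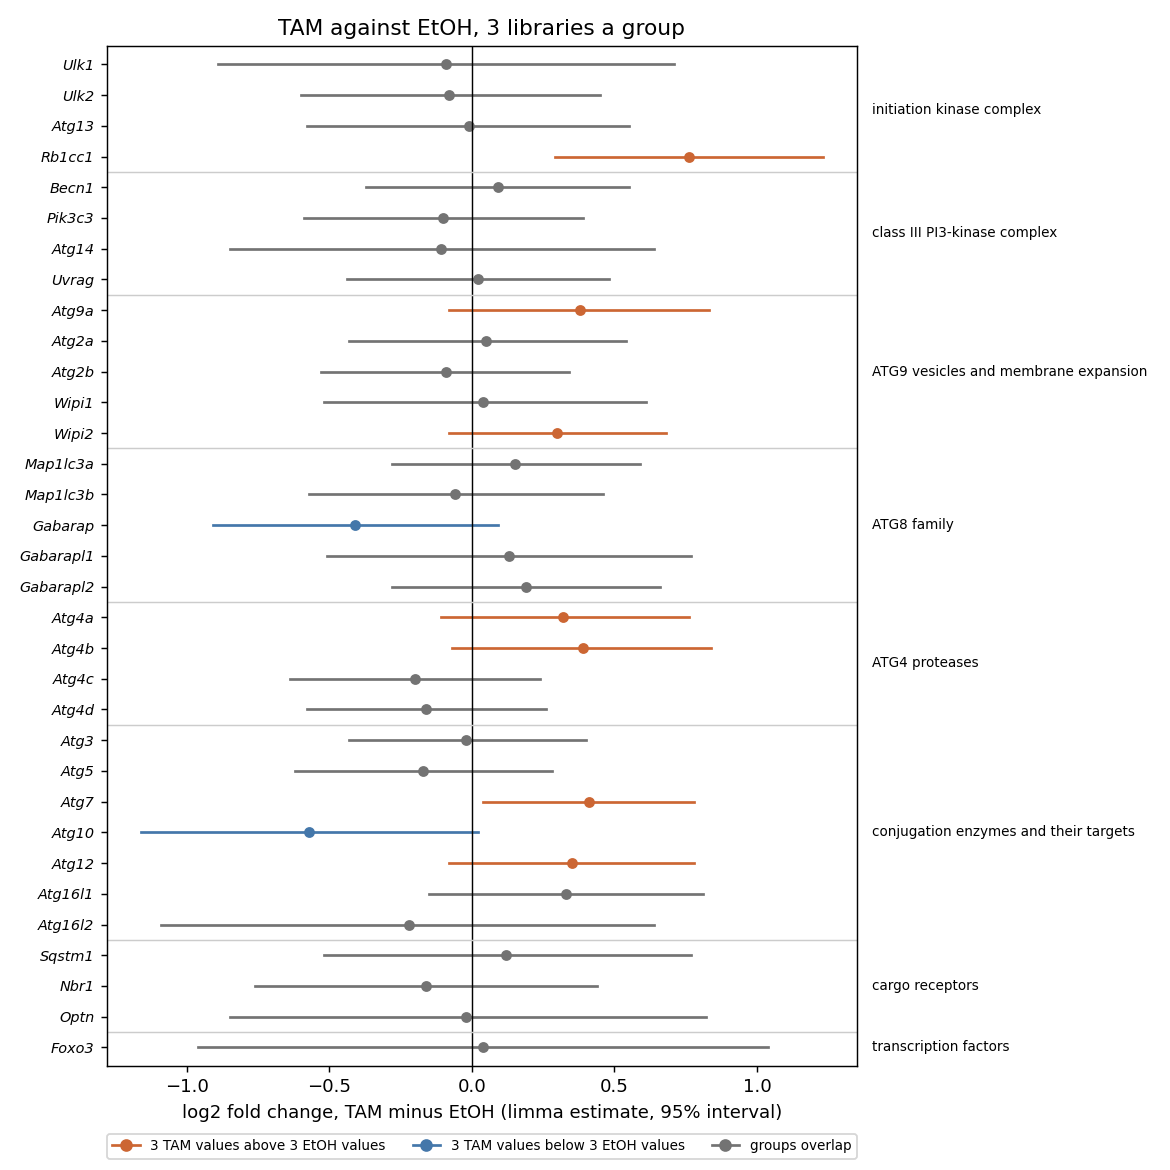
Log2 fold changes of the 33 tested autophagy genes (x axis, TAM minus EtOH on the log2(normalized count + 1) scale), with points for the limma estimates and lines for their 95% intervals, grouped by role. Intervals exclude 0 for Rb1cc1 and Atg7 alone, and neither passed the adjusted threshold.

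Without a test, the 3 values of a group can still be compared one by one. All 3 TAM values lay above all 3 EtOH values for 7 members, Rb1cc1, Atg9a, Wipi2, Atg4a, Atg4b, Atg7 and Atg12, which is 21.2% of the members, where 9.19% of all genes tested did so. They lay below for 2 members, Gabarap and Atg10, or 6.06%, where 11.4% of all genes did. The groups overlapped for the other 24, and over all genes 20.6% did not overlap in either direction. When every library was scaled to the same total, all 7 of the higher members and Gabarap still did not overlap, while Atg10 did, and the shares of all genes became 13.9% above and 6.36% below.

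**Figure D2:**
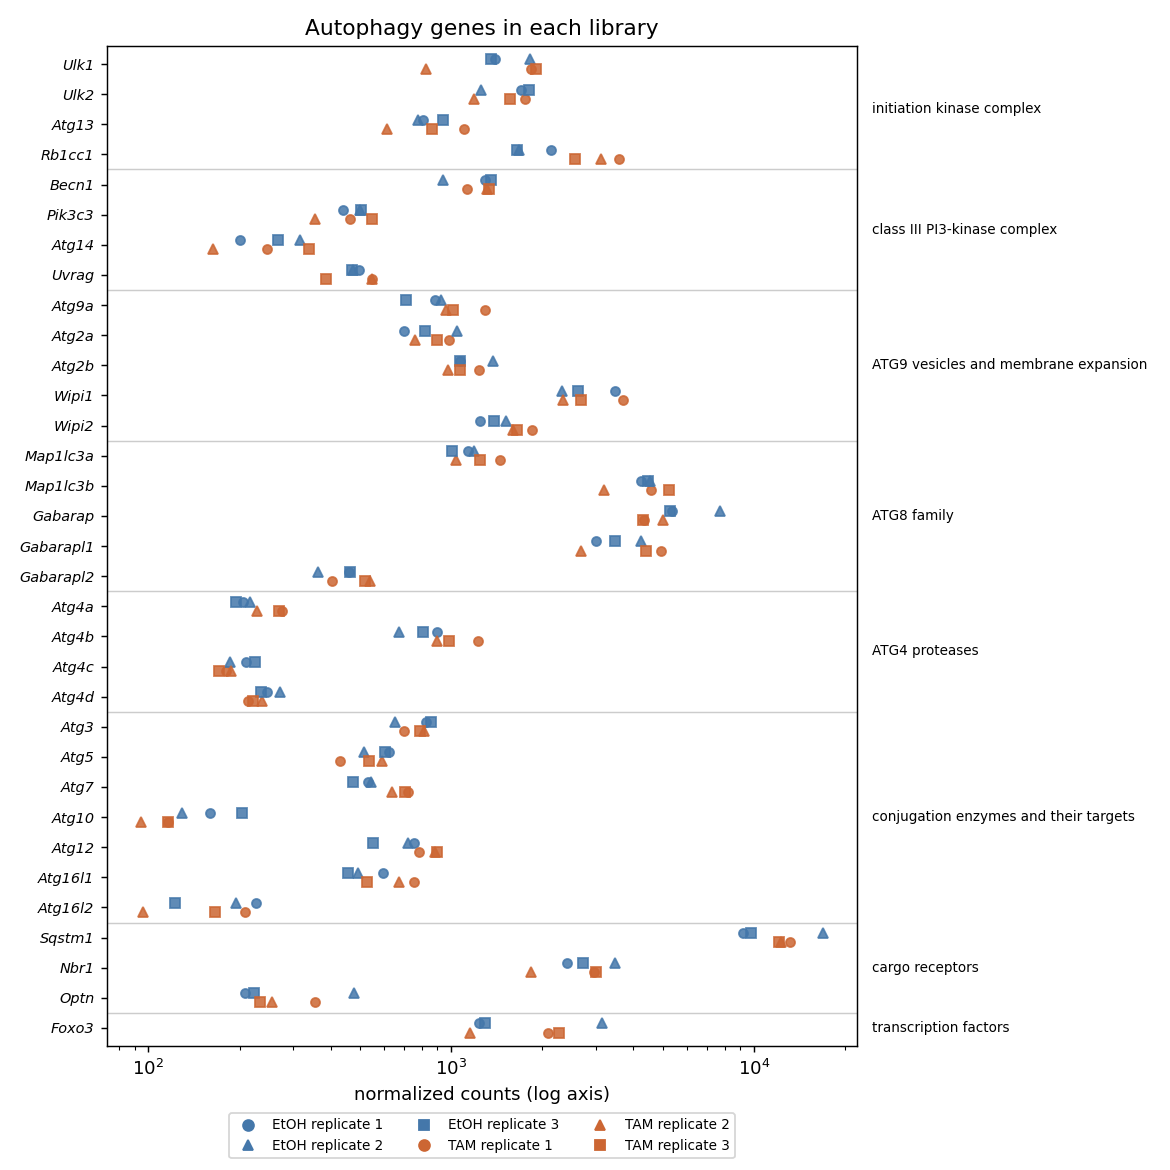
Normalized counts of the 33 tested autophagy genes in each library (log axis), blue for EtOH and orange for TAM, with 1 symbol for each replicate number. Groups are apart for Rb1cc1, with TAM values from 2558 to 3571 against 1653 to 2135 in EtOH, and overlap for most other genes.

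The initiation complex holds the kinases ULK1 and ULK2, the adaptor ATG13 and the large scaffold RB1CC1, also called FIP200, on which the complex assembles. Rb1cc1 (ENSMUSG00000025907, chr1:6196278-6266729 of mm9, plus strand) was listed at 2135, 1675 and 1653 normalized counts in EtOH and at 3571, 3134 and 2558 in TAM. It was the only member of the complex whose groups did not overlap, with the lowest TAM library above the highest EtOH library. The mean was 1821 ± 272 (SD, n = 3) in EtOH and 3088 ± 508 in TAM, a fold of 1.69 and a log2 fold change of 0.76 (SE 0.20, 95% interval 0.29 to 1.23, limma adjusted p = 0.196). The 3 differences between libraries of the same number were 0.74, 0.90 and 0.63 on the log2 scale, the highest in replicate 2. A stretch of the annotated Rb1cc1 exons, 21.8% of their bases, has a near-identical copy at 1 other place of the genome, so reads could be split between them. The Rb1cc1 row ends at 6224392, short of the annotated end given above, so this share is uncertain for the bases counted.

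The catalytic subunit was not shifted as a group. Ulk1 was listed at 1400, 1825 and 1354 normalized counts in EtOH and at 1834, 824 and 1899 in TAM. The TAM libraries 1 and 3 were the highest of the 6 and TAM library 2 the lowest, so the log2 fold change was −0.09 (SE 0.34, 95% interval −0.89 to 0.71, limma adjusted p = 0.94). Ulk2 and Atg13 had log2 fold changes of −0.08 and −0.01, with overlapping groups.

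The lipid kinase PIK3C3, or VPS34, makes phosphatidylinositol 3-phosphate on the membrane, in a complex with BECN1 and with either ATG14, which directs it to the autophagosome, or UVRAG, which serves endosomes too. None of the 4 transcripts differed beyond the spread between libraries. Becn1 was listed at 1290, 937 and 1349 normalized counts in EtOH and at 1126, 1313 and 1334 in TAM. Apart from EtOH library 2, the lowest, the Becn1 values lay close together, and the log2 fold change was 0.09 (SE 0.20, 95% interval −0.37 to 0.55, limma adjusted p = 0.883). Of the Becn1 exon bases, 43.9% overlap exons of Cntd1 on the opposite strand, and whether the counting used the strand is not given in the sources used here. The log2 fold changes of Pik3c3, Atg14 and Uvrag lay between −0.11 and 0.02.

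Membrane expansion rests on vesicles with the lipid scramblase ATG9A, the lipid transfer proteins ATG2A and ATG2B, and the WIPI proteins, which bind phosphatidylinositol 3-phosphate. WIPI2 in turn brings in ATG16L1. Atg9a (ENSMUSG00000033124, chr1:75177440-75188497 of mm9, minus strand) was listed at 884, 924 and 708 normalized counts in EtOH and at 1298, 964 and 1013 in TAM. The groups were apart, although TAM library 2 lay only just above EtOH library 2, and the log2 fold change was 0.38 (SE 0.19, 95% interval −0.08 to 0.83, limma adjusted p = 0.463). Wipi2 (ENSMUSG00000029578, chr5:143105496-143146542, plus strand) was listed at 1245, 1522 and 1388 normalized counts in EtOH and at 1852, 1598 and 1650 in TAM. Its groups were likewise apart by a narrow margin in replicate 2, at a log2 fold change of 0.30 (SE 0.16, 95% interval −0.08 to 0.68, limma adjusted p = 0.487).

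The related WIPI gene behaved otherwise. Wipi1, at 2317 to 3467 normalized counts in EtOH and 2341 to 3680 in TAM, had differences of 0.09, 0.01 and 0.03 between libraries of the same number. Its libraries varied by replicate number far more than by treatment. Atg2a and Atg2b had log2 fold changes of 0.05 and −0.09. Atg9b, the second mammalian ATG9 gene, was listed at 0.58, 22.1 and 0 normalized counts in EtOH and at 3.56, 12.6 and 6.48 in TAM. In both groups library 2 was the highest, and with values this low no fold change is given.

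The ATG8 proteins are the ubiquitin-like proteins that are linked to lipid on the autophagosome, and fall into the LC3 and GABARAP branches. Gabarap (ENSMUSG00000018567, chr11:69804645-69808453 of mm9, plus strand) was listed at 5366, 7736 and 5271 normalized counts in EtOH and at 4344, 4989 and 4288 in TAM. It was the only ATG8 gene whose groups did not overlap, with all TAM libraries below all EtOH libraries and EtOH library 2 far above the rest. The log2 fold change was −0.41 (SE 0.21, 95% interval −0.91 to 0.09, limma adjusted p = 0.459), and the differences for replicates 1, 2 and 3 were −0.30, −0.63 and −0.30.

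Map1lc3b, which encodes the LC3 protein used most often to follow autophagosomes, was listed at 4233, 4530 and 4478 normalized counts in EtOH and at 4585, 3194 and 5228 in TAM. TAM library 2 was the lowest of the 6 and TAM library 3 the highest, so that the log2 fold change was −0.06 (SE 0.22, 95% interval −0.57 to 0.46, limma adjusted p = 0.942). Of its exon bases, 79.8% have near-identical copies at 5 other places, which makes its level uncertain. The log2 fold changes of Map1lc3a, Gabarapl1 and Gabarapl2 were 0.15, 0.13 and 0.19, with overlapping groups, and 33.3% of the Gabarapl2 exon bases are copied elsewhere.

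Levels of different genes can be set side by side only per length, here as normalized counts per kilobase of annotated exon. The copied exon bases of Map1lc3b and Gabarapl2 make their levels, and every share of the summed level below, uncertain. Among the ATG8 genes in EtOH, Gabarap had the highest mean level per kilobase at 3321, followed by Map1lc3b at 2578, Gabarapl1 at 2028, Map1lc3a at 941 and Gabarapl2 at 184. The library ranges of Gabarap and Map1lc3b in EtOH did not overlap, and neither did those of any other neighbours in this order. In TAM the ranges of Gabarap, Map1lc3b and Gabarapl1 overlapped. The share of Gabarap in the summed ATG8 level per kilobase was 35.3%, 40.3% and 33.6% in EtOH and 25.5%, 37.6% and 25.4% in TAM. Libraries 1 and 3 of TAM thus had the lowest shares, and library 2 lay within the EtOH range. The share of Gabarapl1 was 20.7%, 23.1% and 23.3% in EtOH and 30.3%, 21.2% and 27.3% in TAM, again with library 2 apart from the other 2.

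**Figure D3:**
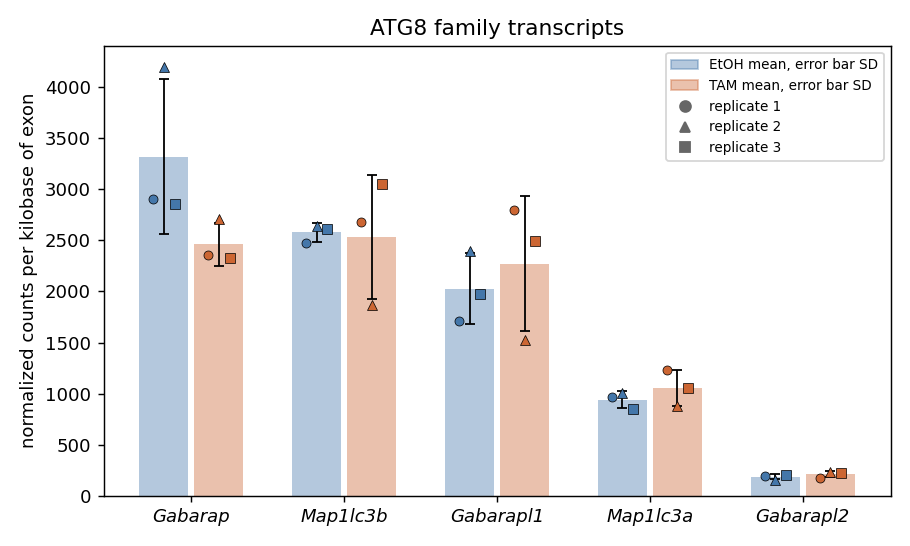
Normalized counts per kilobase of exon (y axis, from 0) for the 5 ATG8 genes, with bars for the mean of 3 libraries, error bars for the SD and symbols for single libraries. Gabarap has the highest EtOH mean, 3321, and its 3 TAM libraries lie below its 3 EtOH libraries, whereas the other 4 genes overlap.

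The ATG4 proteases cut the ends of ATG8 proteins before conjugation and release them from lipid afterwards, and ATG4B is the main enzyme of the 4. Atg4b (ENSMUSG00000026280, annotated at chr1:95648077-95686372 of mm9, plus strand, with its row ending at 95672260) was listed at 896, 672 and 807 normalized counts in EtOH and at 1222, 901 and 987 in TAM. Atg4a was listed at 206, 217 and 194 normalized counts in EtOH and at 277, 228 and 269 in TAM. All TAM libraries lay above all EtOH libraries for both genes, by a narrow margin. The log2 fold changes were 0.39 for Atg4b (SE 0.19, 95% interval −0.07 to 0.84, limma adjusted p = 0.45) and 0.32 for Atg4a (SE 0.18, 95% interval −0.11 to 0.76, limma adjusted p = 0.507). For Atg4a, 59.6% of the exon bases match 1 other place of the genome.

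The other 2 ATG4 genes had negative values. Atg4c was listed at 210, 186 and 225 normalized counts in EtOH and at 181, 187 and 171 in TAM. Its groups overlapped through the libraries numbered 2, which were almost equal, and the log2 fold change was −0.20 (SE 0.19, 95% interval −0.64 to 0.24, limma adjusted p = 0.687). Atg4d had a log2 fold change of −0.16, with overlapping groups, and 31.1% of its exon bases overlap exons of Kri1 on the opposite strand.

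In the conjugation systems ATG7 is the activating enzyme shared by ATG12 and the ATG8 proteins. ATG10 passes ATG12 on to ATG5, ATG3 passes ATG8 on to lipid, and the ATG12-ATG5 conjugate with ATG16L1 directs that last step. Atg7 (ENSMUSG00000030314, chr6:114593149-114810431 of mm9, plus strand) was listed at 532, 545 and 475 normalized counts in EtOH and at 720, 636 and 703 in TAM. The groups were apart by about as much as either group's own range, and the log2 fold change was 0.41 (SE 0.16, 95% interval 0.04 to 0.78, limma adjusted p = 0.332). Near-identical copies of 44.1% of the Atg7 exon bases lie at 6 other places.

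Atg10 (ENSMUSG00000021619, chr13:91074954-91363592, minus strand) was listed at 160, 129 and 203 normalized counts in EtOH and at 116, 94.7 and 116 in TAM. All TAM libraries were lower, and each was lower than the EtOH library of its number, by 0.46, 0.44 and 0.80 on the log2 scale. The log2 fold change was −0.57, the most negative of the members (SE 0.25, 95% interval −1.16 to 0.02, limma adjusted p = 0.386). The activating and the conjugating enzyme of ATG12 thus had estimates of opposite sign.

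Atg12 was listed at 755, 719 and 551 normalized counts in EtOH and at 784, 881 and 896 in TAM. Its TAM values were all higher, though TAM library 1 lay close to EtOH library 1, and the log2 fold change was 0.35 (SE 0.18, 95% interval −0.08 to 0.78, limma adjusted p = 0.471). Atg16l2, a relative of Atg16l1 of less certain function, was listed at 227, 194 and 122 normalized counts in EtOH and at 209, 96.3 and 166 in TAM. The groups overlapped widely, with a log2 fold change of −0.22 (SE 0.37, 95% interval −1.09 to 0.64, limma adjusted p = 0.836). The other 3 genes of these systems, Atg3, Atg5 and Atg16l1, had log2 fold changes of −0.02, −0.17 and 0.33, with overlapping groups.

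Promoter sequence was looked at for letters that transcription factors of autophagy genes are known to read. RefSeq promoter windows of GRCm38.p6, from 250 bases before to 50 after a RefSeq start, matched 28 of the 34 members by symbol. These windows and the mm9 positions above are in different builds and were not compared. A window, that of Atg7 included, may therefore lie at another start than that of the mm9 gene. The E-box CACGTG, which reads the same on both strands, was in 12.9% of the members' 31 windows, those of Atg3, Atg5, Atg7 and Atg14, and in 7.15% of all 32851 windows. Its longer form TCACGTGA, the core of the CLEAR element described in promoters of lysosomal genes and also the same on both strands, contains the E-box. It was in 1 member window, that of Atg3, and in 0.974% of all windows. The FOXO motif GTAAACA, searched on both strands, was in 0 member windows and 3.65% of all. The string TGACTCAGC, 1 form of the antioxidant response core, also searched on both strands, was in 0 and 0.454%. Other forms of this core were not searched. The windows of Atg7, whose groups were apart, and of Atg3, whose groups overlapped, are shown 5′ to 3′ with the motifs in capitals, since both hold an E-box and differ in their values.
Atg7, chr6:114670846-114671145 of GRCm38.p6, plus strand: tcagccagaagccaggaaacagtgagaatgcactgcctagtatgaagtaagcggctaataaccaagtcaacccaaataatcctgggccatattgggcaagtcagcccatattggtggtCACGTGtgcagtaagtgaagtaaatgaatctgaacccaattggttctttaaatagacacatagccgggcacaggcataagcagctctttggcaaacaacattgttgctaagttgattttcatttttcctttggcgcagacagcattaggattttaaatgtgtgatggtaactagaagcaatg
Atg3, chr16:45158579-45158878 of GRCm38.p6, plus strand: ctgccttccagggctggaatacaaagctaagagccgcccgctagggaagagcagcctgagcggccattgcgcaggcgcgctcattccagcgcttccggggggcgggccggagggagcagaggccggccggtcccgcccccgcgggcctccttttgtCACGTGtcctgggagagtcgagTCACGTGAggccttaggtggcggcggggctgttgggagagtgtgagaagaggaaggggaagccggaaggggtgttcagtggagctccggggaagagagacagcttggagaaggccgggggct
The Atg3 window holds a second E-box outside the longer motif. These are matches of letters in a window, and binding was not measured.

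Cargo receptors bind ubiquitin-marked cargo with one end and ATG8 with the other. Sqstm1, which encodes p62, itself degraded by autophagy, had the highest mean level per kilobase of the members in EtOH, at 3558. That rank rests on EtOH library 2, at 5020 normalized counts per kilobase. In libraries 1 and 3 Sqstm1 was at 2742 and 2913 per kilobase and Gabarap at 2910 and 2858. It was listed at 9201, 16849 and 9774 normalized counts in EtOH and at 13148, 12302 and 12142 in TAM. The TAM libraries were close to each other and lay above EtOH libraries 1 and 3 and below EtOH library 2, so the log2 fold change was 0.12 (SE 0.27, 95% interval −0.52 to 0.77, limma adjusted p = 0.885). An unnamed gene, 3010026O09Rik, overlaps 17.3% of the Sqstm1 exon bases on the opposite strand. Nbr1 and Optn had log2 fold changes of −0.16 and −0.02, and in both EtOH library 2 was the highest of the 6.

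Foxo3 encodes a forkhead factor that activates autophagy genes. It was listed at 1232, 3139 and 1293 normalized counts in EtOH and at 2094, 1150 and 2263 in TAM. The order of the groups turned over between replicates, with TAM higher by 0.76 and 0.81 in replicates 1 and 3 and lower by 1.45 in replicate 2 on the log2 scale. Its log2 fold change of 0.04 thus had the widest interval of the members (SE 0.42, 95% interval −0.96 to 1.04, limma adjusted p = 0.978).

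This turn in replicate 2 recurred across the machinery. TAM exceeded EtOH in replicates 1 and 3 but not in replicate 2 for 12 of the 33 members, or 36.4%, where 11.7% of all genes tested did so. The 12 were Ulk1, Pik3c3, Atg14, Atg2a, Atg2b, Map1lc3a, Map1lc3b, Gabarapl1, Sqstm1, Nbr1, Optn and Foxo3, and for Atg2b the difference in replicate 3 was 0.00. The opposite turn, with replicate 2 alone higher in TAM, was seen for 4 members, Becn1, Atg4c, Atg3 and Atg5, or 12.1%, where 17.0% of all genes did so. EtOH library 2 was the highest of its group and TAM library 2 the lowest of its group for 13 members, or 39.4%, and for 13.9% of all genes. All 3 replicates were higher in TAM for 9 members, or 27.3%, and lower for 3, or 9.09%, where the shares of all genes were 18.3% and 23.6%.

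**Figure D4:**
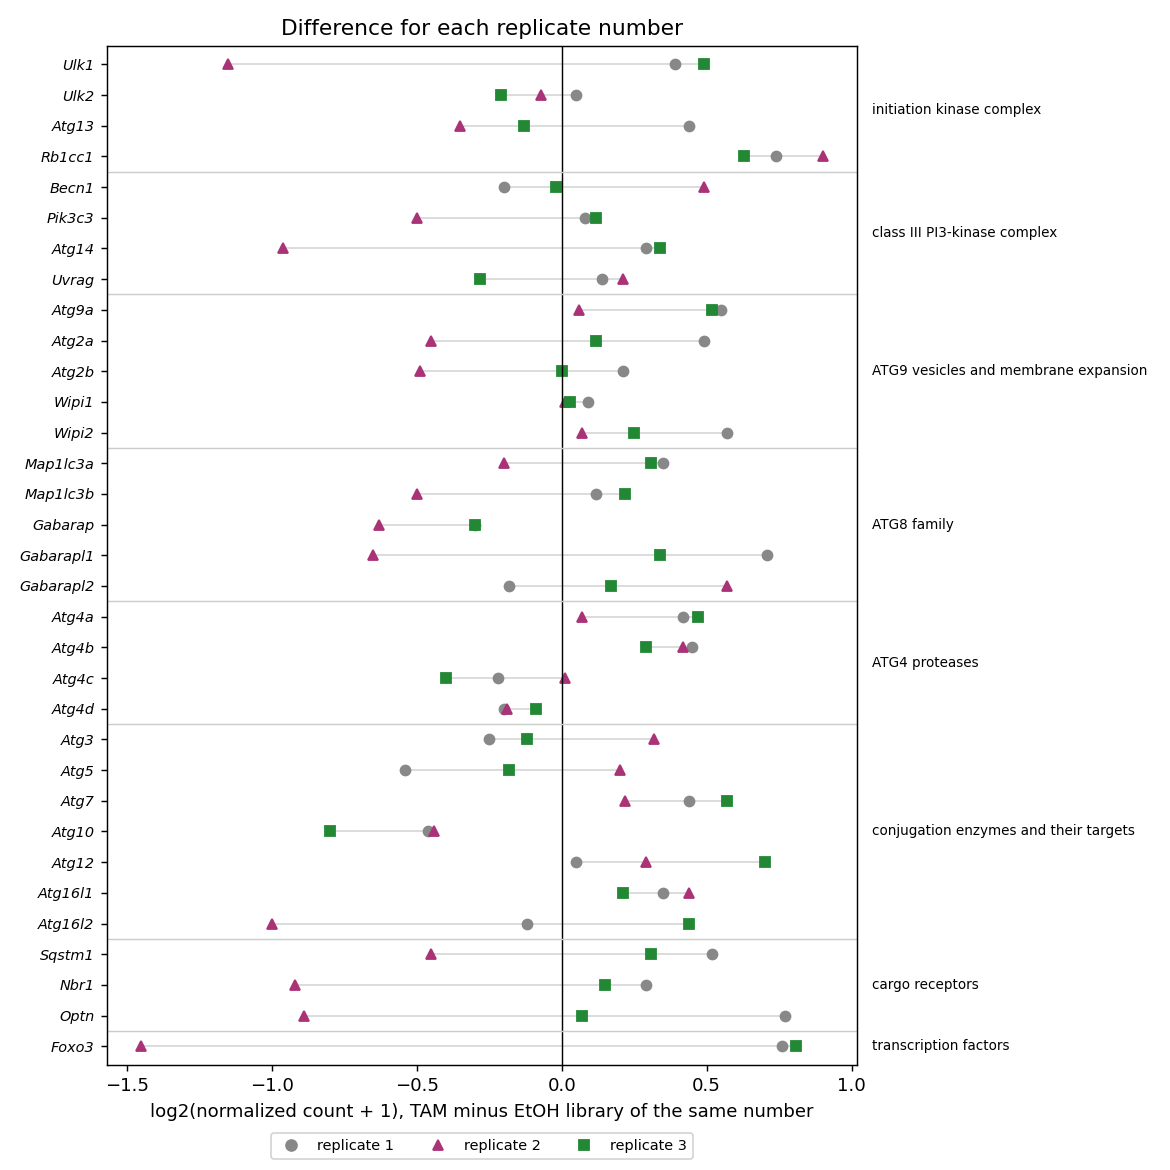
Difference between the TAM and the EtOH library of the same number (x axis, log2(normalized count + 1)) for the 33 tested autophagy genes, with 1 symbol for each replicate. Replicate 2 lies left of 0 while replicates 1 and 3 lie right of it for 12 genes (Atg2b at 0.00 in replicate 3), most widely for Foxo3, at −1.45 against 0.76 and 0.81.

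Of 56 further genes of the pathway that could be tested, 14, or 25.0%, had the same turn, with TAM lower in replicate 2 alone. Over all genes tested 11.7% did so. The opposite turn, with replicate 2 alone higher, was seen for 4, or 7.14%, beside 17.0% of all genes. Replicate 1 had the opposite sign to replicates 2 and 3 for 18, or 32.1%, beside 18.9% of all genes, so turns in these genes were not particular to replicate 2. Some of the 56 genes stood out in EtOH library 2. Named after their values were seen, Bnip3 and Bnip3l, receptors for the removal of mitochondria, and Ddit4, an inhibitor of mTORC1, were all far higher there. Bnip3 was listed at 589, 9584 and 553 normalized counts in EtOH and at 1063, 620 and 948 in TAM. Bnip3l was listed at 2424, 7136 and 2781 in EtOH and at 2160, 1682 and 2647 in TAM. Ddit4 was listed at 1013, 10926 and 1086 in EtOH and at 747, 880 and 1206 in TAM. In each of these genes EtOH library 2 alone stood above the other 5 libraries, and the part of this in the results of the members was not tested.

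Without both libraries numbered 2, a fit chosen after the values were seen and resting on 2 libraries a group, 23 members had positive and 10 negative log2 fold changes. The median was 0.22, beside −0.05 over all genes, and 69.7% of the members were positive, where 44.7% of all genes were. With the block, 2 members were then called higher in TAM, Foxo3 and Rb1cc1, and 0 lower, where 4.38% and 3.29% of the 11885 genes tested were called. Foxo3 had a log2 fold change of 0.79 (SE 0.13, limma adjusted p = 0.0338) and Rb1cc1 one of 0.69 (SE 0.13, limma adjusted p = 0.0482). The libraries left out are those in which 12 members had turned negative. For Foxo3 they hold the difference of −1.45, while those of 0.76 and 0.81 were kept. The larger share of positive members and the Foxo3 call thus follow from that choice and are no separate evidence. Without the block, 0 members were called, where 0.0421% of all genes were called in each direction. At an unadjusted p under 0.05, 8 members were then higher and 1 was lower, where 1149 and 1281 of the 11885 genes tested were. Ulk1 in this fit had a log2 fold change of 0.44, Gabarapl1 of 0.52, Sqstm1 of 0.41 and Atg7 of 0.50, and none of these 4 passed the adjusted threshold with or without the block. Gabarap and Atg10 kept negative values of −0.30 and −0.63. The median of the members was −0.14 without both libraries numbered 1, and 0.03 without both numbered 3.

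Around the core machinery, 59 genes of the same pathway were listed, of which 57 had a row and 56 could be tested. With limma 0 were called in either direction with and without the block, and their median log2 fold change was −0.03, the same as over all genes. At an unadjusted p under 0.05, 2 were higher and 1 was lower, and with the block 3 and 1, where 6.67% and 6.7% of all genes passed without the block and 8.64% and 8.32% with it. The 12 further genes of initiation and nucleation, not all of them subunits, held no unadjusted p under 0.05 without the block. Neither did the 12 genes of fusion with the lysosome, and the medians of these lists were −0.04 and 0.08. Of the 14 tested receptors for cargo and organelles, Fundc1, a mitochondrial receptor, was the 1 with such a p without the block. Fundc1 was listed at 364, 404 and 420 normalized counts in EtOH and at 202, 300 and 293 in TAM. Its groups did not overlap, at a log2 fold change of −0.60 (SE 0.21, limma adjusted p = 0.297). With the block Retreg1, a receptor on the endoplasmic reticulum, also had such a p, at a log2 fold change of 1.11 (SE 0.41, limma adjusted p = 0.267). It was listed at 65.4, 264 and 57.4 normalized counts in EtOH and at 174, 263 and 226 in TAM, so that its groups overlapped through EtOH library 2.

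Among the 18 genes of mTORC1, AMPK and transcriptional control, Mtor and Trp53inp2 had an unadjusted p under 0.05 with and without the block. Trp53inp2 encodes a nuclear and autophagosomal protein that binds ATG8. It was listed at 1310, 1413 and 1113 normalized counts in EtOH and at 3495, 1737 and 2762 in TAM. All TAM libraries were higher, TAM library 2 least so, with a log2 fold change of 1.01 (SE 0.27, limma adjusted p = 0.206). Mtor, the kinase that restrains the ULK1 complex when nutrients are plentiful, was listed at 1041, 710 and 989 in EtOH and at 1276, 1284 and 1312 in TAM, and its log2 fold change was 0.52 (SE 0.19, limma adjusted p = 0.31).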

How the data were processed

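Poly(A) RNA of 6 MSF libraries was sequenced, 3 per group. Per the labels and the paper's methods, the authors mapped reads to mm9 with TopHat, counted them per gene with HTSeq and analysed them with edgeR and TMM normalization. The deposited signal is 1 table of normalized counts. The table does not say whether its values carry that normalization, the strand setting is not given in the sources used here, and most values are not whole numbers, so they were treated as normalized and never as reads. No count model was run. Read depth is unknown, so no counting interval was given, and the precision is that of 3 libraries against 3.

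The autophagy genes and all gene lists were chosen with earlier results of these data known. Rows were taken by exact gene name. In R 4.3.3 with limma 3.58.1, log2(value + 1) was fitted with an intensity trend over the 11877 genes that reached 1 c.p.m. in 3 or more libraries, p-values were adjusted over all of these by Benjamini-Hochberg, and genes under 0.05 were called. The replicate numbers in the labels were taken as pairing the libraries, from correlations across genes of the departures from the group means. These were 0.24, 0.29 and 0.42 for numbers 1, 2 and 3, and −0.31 to 0.04 between different numbers. The members often went otherwise, with EtOH library 2 the highest and TAM library 2 the lowest of its group for 39.4%, beside 13.9% of all genes. The sources do not say that same-numbered libraries were made together. The fit without the block is reported first, and the block is given beside the counts it changed. The fit was tested on simulated data.

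All values were given for members past the threshold, members whose groups did not overlap, the 4 most positive and the 4 most negative fold changes, and Sqstm1, Map1lc3b, Becn1 and Ulk1. In each further list the called genes, or else that with the largest change at an unadjusted p under 0.05, were given. Foxo3, Mtor, Retreg1, Bnip3, Bnip3l, Ddit4 and Wipi1 were added after their values were seen. Exon lengths and opposite-strand overlaps were taken from the GENCODE annotation of mm9, and copies of exons were found with BLAST 2.17.0, counting matches of 100 bases and 95% identity upwards. For 26 of 34 members both ends of the annotated gene matched the table. For the other 8, Sqstm1, Atg4b and Rb1cc1 among them, the annotated end differs, so their exon length, overlaps and copied share are uncertain. Positions given are those of the annotation.

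Alternatives were scaling to equal library totals, median-ratio scaling, pseudocounts of 0.1 and 10, other filters on low values, no intensity trend, library weights, the replicate block, a ratio of group means with a floor, and leaving out each library. Leaving out both libraries of a number was added after the data were seen.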

Additional observations from a re-analysis of the deposited data

How the results depend on the processing

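The replicate block changed no call of a member and no direction. Under it 1 member was higher and 1 was lower at an unadjusted p under 0.05, against 2 and 0 without it. No setting that kept all libraries called a member. At an unadjusted p under 0.05, 6 members were higher in TAM with equal library totals, where 1124 of 11861 genes tested were. With library weights 8 members were higher and 3 lower, where 1381 and 1566 of 11877 genes were. Without the intensity trend 1 member was lower, where 760 of 11877 genes were. With equal totals the median of all genes rose by 0.11 on the log2 scale, and 26 members were positive and 7 negative. With library weights 386 genes were called higher and 356 lower, against 20 and 9, and the smallest adjusted p of a member was 0.0504. Library weights together with the block were not fitted. Leaving out 1 library, or both of 1 number, left between 0 and 2 members called higher and 0 lower. The 2 are Foxo3 and Rb1cc1, without both libraries numbered 2 and with the block. At an unadjusted p under 0.05, leaving libraries out gave between 1 and 10 members higher and between 0 and 1 lower. Over the same settings between 424 and 1516 of all genes tested were higher and between 346 and 1647 lower. The 10 came without both libraries numbered 2 and with the block, where 12.8% of all genes were higher and 13.9% lower.

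Members with small differences changed sign. With equal totals the log2 fold changes became 0.02 for Ulk1, 0.04 for Ulk2, 0.10 for Atg13, 0.01 for Pik3c3, 0.02 for Atg2b, 0.06 for Map1lc3b, 0.10 for Atg3 and 0.10 for Optn, and that of Atg14 just passed 0, at 0.00. With median-ratio scaling that of Atg13 became 0.01, and those of Atg3 and Optn passed 0, at 0.00. With library weights they became 0.36 for Ulk1, 0.02 for Atg13, 0.14 for Pik3c3, 0.37 for Atg14, −0.20 for Uvrag, −0.06 for Wipi1, 0.19 for Map1lc3b, 0.01 for Atg16l2, 0.15 for Nbr1, 0.14 for Optn and 0.00, just above 0, for Atg2b. The ratio of group means had the opposite sign to the fit for Atg13, at 0.02, and for Foxo3, at −0.04. This ratio averages the counts before the log2 is taken, whereas the fit averages log2 values, so single high libraries weigh more in the ratio. The cause of the other changes of sign was not tested. With libraries left out, singly or by number and with or without the block, the values ran from −0.38 to 0.44 for Ulk1, −0.24 to 0.08 for Ulk2, −0.24 to 0.21 for Atg13, −0.11 to 0.24 for Becn1, −0.24 to 0.10 for Pik3c3, −0.36 to 0.32 for Atg14 and −0.07 to 0.19 for Uvrag. They ran from −0.17 to 0.30 for Atg2a, −0.25 to 0.11 for Atg2b, −0.14 to 0.21 for Wipi1, −0.21 to 0.17 for Map1lc3b, −0.16 to 0.52 for Gabarapl1, 0.00, just below 0, to 0.37 for Gabarapl2, −0.18 to 0.10 for Atg3 and −0.36 to 0.01 for Atg5. They ran from −0.56 to 0.16 for Atg16l2, −0.07 to 0.41 for Sqstm1, −0.39 to 0.22 for Nbr1, −0.41 to 0.42 for Optn and −0.34 to 0.79 for Foxo3. With the block and without both libraries numbered 1, Uvrag was at −0.04 and Foxo3 at −0.32. The other 13 tested members kept their sign in every setting run.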
